A study of Mus musculus with 8 samples.

Results

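The genes described here are 40 cell cycle genes, 20 that act in S phase, when DNA is copied, and 20 that act in mitosis, when the copied chromosomes are separated. They were followed in common lymphoid progenitors, a population of the bone marrow from which the different kinds of lymphocyte arise. The members were taken by gene symbol from a list; the rule uses no expression value, but the list was drawn up with earlier results of these data known. Of the 40 listed genes, 39 had a probe set that named them alone, out of 18193 such genes on the array, and all 39 were bright enough to be tested. Ccnb1, which encodes cyclin B1, was the member without a named probe set and has no value here. A probe set shared between Tyms and its pseudogene Tyms-ps was left out, so Tyms rests on a probe set of its own. Where a gene had several probe sets, the brightest was used.

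The progenitors were sorted from bone marrow of C57bl/6 mice aged 10 to 13 weeks as cells without lineage markers, with FLT3 and CD127 (the IL-7 receptor chain, gene Il7r), and without LY6D. There were 2 arrays of wild type cells (WT 1 and WT 2), 2 of cells labelled HEB-KO (HEB_KO 1 and 2) and 4 of cells labelled E2A-KO (E2A_KO 1 to 4). HEB is the product of Tcf12 and E2A the product of Tcf3, and both are E proteins, transcription factors needed early in lymphoid development that bind DNA at E boxes. The labels name each knockout without its allele or its way of deletion, and the groups differ in no other treatment. Marrows of several mice were pooled for a sort and each genotype had 2 or more sorts, but the labels leave unsaid if the 4 E2A-KO arrays came from 4 separate sorts. If arrays shared a sort, the n of 4 and the spread between those arrays would cover fewer independent pools. In either case p-values reflect how far arrays made from pools differed, and say nothing of single mice. Values are log2 of RMA intensity, in which a difference of 1 is a doubling. A level of 1 probe set says nothing about the level of another, because probes differ in how strongly they bind.

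Cells pass through G1, S phase, G2 and mitosis in that order. The genes of S phase and those of mitosis are switched on in separate waves: E2F factors open the wave of replication genes, and a later wave of G2 and mitosis genes is read through promoters with a CHR element and CCAAT boxes, held back in resting cells by the DREAM complex and activated by the MuvB complex with B-MYB and FOXM1. In cells that do not divide both waves are low. In lymphoid progenitors E2A has been described as a brake on proliferation as well as an activator of lymphoid genes.

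The letters of these waves were looked for in the promoter windows of the members, from 250 bases before to 50 bases after the RefSeq start (build GRCm38.p6). A window was found for 33 of the 40 members, 17 of S phase and 16 of mitosis, and for 27025 genes in all, with the first listed window used for each gene. Mcm4, Gins2, Ccne2, Ccna2, Kif20a, Aurkb and Tpx2 were not matched. The E2F search used TTTCGCGC, TTTGGCGC and TTTCCCGC, the CHR search TTTGAA and TTCGAA, and the third search CCAAT, each on either strand and each counted separately where matches overlap. An E2F match stood in 8 of 17 S phase windows (47.1%), namely Mcm3, Mcm5, Mcm6, Mcm7, Cdc6, Cdt1, Pola1 and Rfc3. It stood in 1 of 16 mitotic windows (6.25%), that of Cdk1, and in 1.91% of the windows of all genes. CHR letters were found in 13 of 16 mitotic windows (81.2%), 4 of 17 S phase windows (23.5%) and 19.4% of all. CCAAT was found in 15 of 16 mitotic windows (93.8%), 12 of 17 S phase windows (70.6%) and 37.9% of all, and CHR together with CCAAT in 13 of 16, 4 of 17 and 7.7% in that order.

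The 5 sequences below show the contrast between the waves: a pair of S phase promoters with E2F letters near the start, the Cdk1 promoter with letters of both kinds, and a pair of mitotic promoters with CHR and CCAAT letters. Each gives the 160 bases just before the RefSeq start, 5′ to 3′ on the gene's strand. Capitals mark matches to the E2F, CHR and CCAAT letters on either strand, so that CCAAT can read ATTGG and a CHR can read TTCAAA. Mcm6 encodes a subunit of the replicative helicase and lies on the minus strand at chr1:128359706-128359865. Rfc3, a subunit of the clamp loader, lies at chr5:151651209-151651368 on the minus strand. Cdk1, the kinase that drives entry into mitosis, lies at chr10:69352913-69353072 on the minus strand. Cdc20, an activator of the anaphase promoting complex, lies at chr4:118437344-118437503 on the minus strand, and Kif11, a spindle motor, at chr19:37376222-37376381 on the plus strand.
Mcm6: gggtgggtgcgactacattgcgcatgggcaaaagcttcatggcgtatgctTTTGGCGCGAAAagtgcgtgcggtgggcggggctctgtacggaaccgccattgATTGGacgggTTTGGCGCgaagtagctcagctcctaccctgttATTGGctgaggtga
Rfc3: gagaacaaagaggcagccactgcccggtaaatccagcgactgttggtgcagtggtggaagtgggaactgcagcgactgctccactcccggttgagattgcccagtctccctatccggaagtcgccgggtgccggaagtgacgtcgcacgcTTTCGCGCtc
Cdk1: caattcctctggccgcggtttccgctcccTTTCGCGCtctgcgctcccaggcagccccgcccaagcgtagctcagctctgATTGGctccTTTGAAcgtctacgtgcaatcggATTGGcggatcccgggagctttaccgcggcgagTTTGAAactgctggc
Cdc20: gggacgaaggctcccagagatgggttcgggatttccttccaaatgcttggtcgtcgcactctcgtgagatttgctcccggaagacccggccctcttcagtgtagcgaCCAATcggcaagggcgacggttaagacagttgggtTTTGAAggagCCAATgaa
Kif11: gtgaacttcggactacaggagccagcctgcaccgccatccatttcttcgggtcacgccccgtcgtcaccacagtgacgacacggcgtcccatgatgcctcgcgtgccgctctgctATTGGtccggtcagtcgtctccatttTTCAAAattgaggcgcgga

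The division is not strict: the printed Mcm6 bases also hold CCAAT letters, and the Rfc3 window holds CHR and CCAAT letters further from the start than the bases printed. In the Mcm6 window an E2F match overlaps another on the opposite strand, and they are written as 1 run of capitals. The E box CAGCTG was found in 2 of 17 S phase windows (11.8%), those of Cdc6 and Rrm2, and in 3 of 16 mitotic windows (18.8%), those of Birc5, Cenpe and Ttk, against 16.1% of all windows. The E box CACCTG was found in 3 of 17 S phase windows (17.6%), 0 of 16 mitotic windows (0%) and 20% of all. The share of members with E box letters was thus near or below that of all genes in each case. These matches describe letters in a window and are not bound sites.

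The arrays were first set against their labels. Tcf3 lay between 7.76 and 8.57 on the WT and HEB knockout arrays and between 3.71 and 4.28 on the E2A knockout arrays, and Tcf12 lay at 7.10 and 6.49 on the HEB knockout arrays against 8.52 to 8.85 on the other arrays. Flt3, used in the sort, was at 10.12 to 11.05 on every array. Il7r was lower on the E2A knockout arrays by 2.15 (7.89 to 9.04 against 10.51 and 10.91 in WT, limma adjusted p = 0.0330), and Ly6d, absent from the surface by the sort, ran from 3.53 to 7.83. Median intensity ran from 14.14 to 15.41. The hybridization control, a spiked RNA added in equal amounts, ran from 10.29 on WT 2 and 10.32 on HEB_KO 1 to 12.62 on E2A_KO 3. Markers of other cells differed between arrays. The mean over 8 neutrophil genes was 8.39 on HEB_KO 2, 7.17 on E2A_KO 3, 6.88 on HEB_KO 1 and 5.97 on WT 2, and 4.60 to 4.79 on the other 4 arrays. The mean over 5 erythroid genes was 6.25 on E2A_KO 1 and 4.06 to 4.54 on the rest, and Vpreb1, a pre-B cell gene, was at 8.42 on WT 2 and 6.67 on HEB_KO 1 against 3.78 to 4.64 elsewhere.

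No member passed the test in any comparison of genotypes. With limma fitted over 11957 genes and a Benjamini-Hochberg adjusted p under 0.05, 0 of 39 members were called between E2A knockout and WT, where 0.443% of all genes were (0.0502% higher, 0.393% lower). Between HEB knockout and WT 0 of 39 members and 0% of all genes were called, and 2.61% of all genes but no member had an unadjusted p under 0.05. Between E2A and HEB knockout 0 of 39 members were called, against 0.117% of all genes. Data of the same size were simulated, with the changed genes drawn from all genes tested. The E2A knockout comparison recovered 23.4% of true 2-fold changes and 72.5% of 4-fold ones, so most 2-fold changes would be missed. The mitotic members varied more over the E2A knockout arrays than all genes tested (median SD 0.70 against 0.34). These shares therefore do not apply to the mitotic members, whose recovery was not simulated. What stood out among the members was a spread within a genotype: the mitotic genes went up and down together from array to array in the E2A knockout, and the S phase genes did so less.

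**Figure D1:**
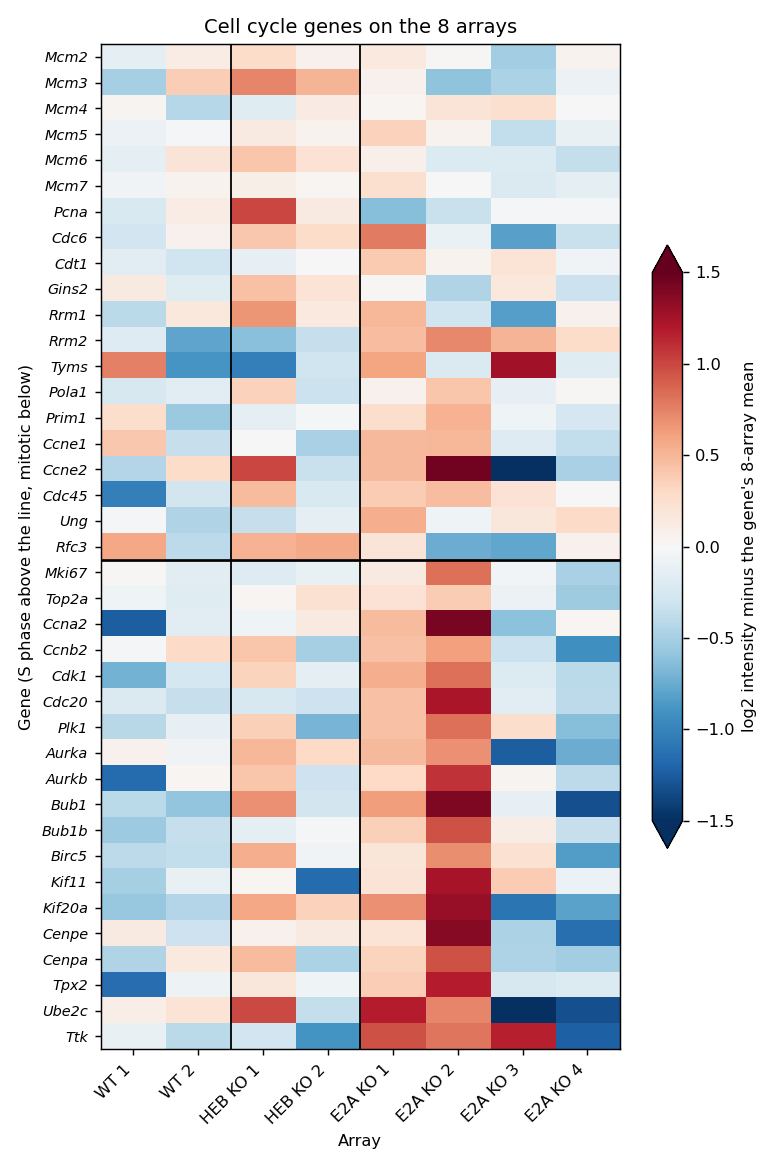
The 39 measured members (rows, S phase above the line and mitotic below) on the 8 arrays (columns, grouped by genotype); colour gives the log2 intensity minus the gene's mean over the 8 arrays, red above and blue below, with the scale ending at 1.5 in each direction. The mitotic rows are red on E2A_KO 2 almost throughout and mostly blue on E2A_KO 4, whereas the S phase rows show no such column.

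To follow this, each member was expressed as its deviation from its own mean over the 8 arrays, and the deviations were averaged within each wave. The mitotic average was 0.97 on E2A_KO 2, 0.45 on E2A_KO 1, -0.23 on E2A_KO 3 and -0.65 on E2A_KO 4. It was -0.40 and -0.17 on WT 1 and 2, and 0.25 and -0.22 on HEB_KO 1 and 2. The E2A knockout arrays thus held both the highest and the lowest mitotic average of all 8, and the WT and HEB knockout arrays lay between them.

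The S phase average stayed in a narrower band. It was 0.27, 0.07, -0.19 and -0.10 on E2A_KO 1 to 4, -0.09 and -0.17 on WT 1 and 2, and 0.20 and 0.01 on HEB_KO 1 and 2. The SD over the replicates of a genotype, pooled, was 0.17 for the S phase average and 0.58 for the mitotic average. The mitotic average minus the S phase average was 0.91 on E2A_KO 2 and -0.55 on E2A_KO 4, and between -0.32 and 0.18 on the other 6 arrays. The arrays with the most and the least mitotic signal relative to S phase signal were therefore both E2A knockout arrays.

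**Figure D2:**
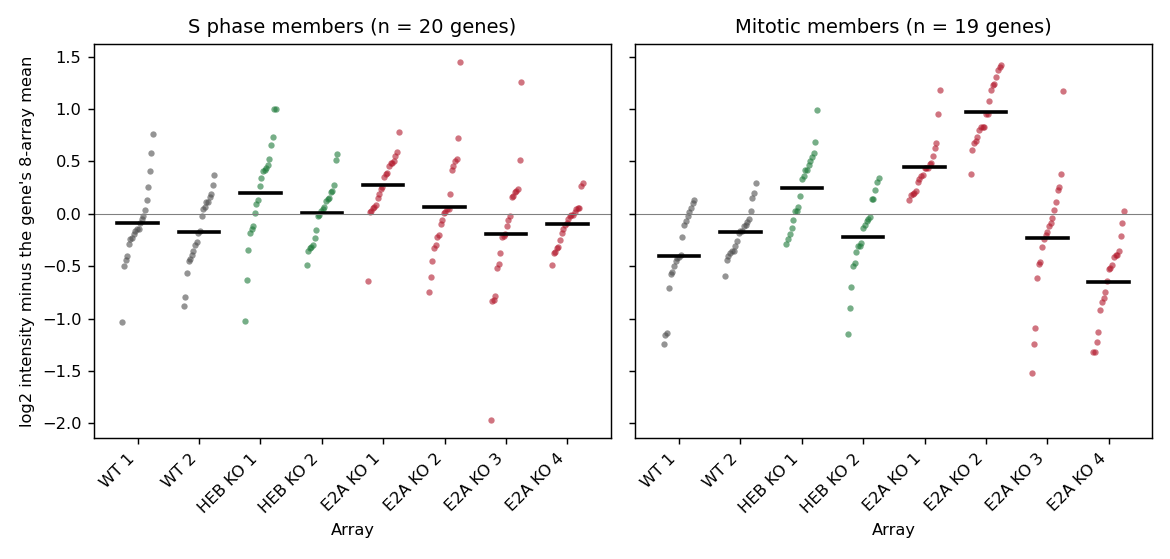
Each point is a member, plotted as its log2 intensity minus its mean over the 8 arrays, for the S phase members (left, n = 20) and the mitotic members (right, n = 19), with the points of an array spread sideways in order of value and the bar marking their mean. The mitotic bars run from 0.97 on E2A_KO 2 to -0.65 on E2A_KO 4, while the S phase bars stay between -0.19 and 0.27.

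Counted gene by gene, E2A_KO 2 was the highest of the 4 E2A knockout arrays for 17 of 19 mitotic members and 6 of 20 S phase members, against 22.2% of all genes. It was the highest of all 8 arrays for the same number, 17 of 19, of mitotic members and for 5 of 20 S phase members, against 11.9% of all genes. E2A_KO 4 was the lowest of the 4 for 14 of 19 mitotic and 7 of 20 S phase members, against 21.8% of all genes. All 19 mitotic members were higher on E2A_KO 2 than on E2A_KO 4 (46.0% of all genes), and 18 of 19 were at least 2-fold higher (5.03% of all genes). Of the S phase members 12 of 20 were higher and 1 of 20, Ccne2, was at least 2-fold higher. The median difference between these arrays was 1.47 for the mitotic members, 0.15 for the S phase members and -0.05 for all genes. This pair of arrays was picked after the values were seen, as the highest and the lowest, so the counts describe the spread and carry no test.

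The arrays of WT and of the HEB knockout differed less. Those genotypes have only 2 arrays each, whereas the pair above was the most distant of 4, so the comparison is uneven. Within the E2A knockout the mitotic median was 0.62 for E2A_KO 2 minus E2A_KO 1 and 0.61 for E2A_KO 1 minus E2A_KO 3. The S phase medians were -0.25 and 0.35. WT 2 was above WT 1 for 12 of 19 mitotic and 11 of 20 S phase members, with medians of 0.13 and 0.07, and for 63.0% of all genes, with a median of 0.13. HEB_KO 1 was above HEB_KO 2 for 14 of 19 mitotic members, with a median of 0.46, for 13 of 20 S phase members, with a median of 0.16, and for 57.5% of all genes, with a median of 0.07. Within the E2A knockout the SD over the 4 arrays had a median of 0.70 for the mitotic members, 0.30 for the S phase members and 0.34 for all genes tested. Dim probe sets vary more, and more of the mitotic members were dim, so the SD was also taken by brightness. Among members with a mean log2 intensity of 8 and above it was 0.55 for 5 mitotic and 0.28 for 12 S phase members, against 0.26 for all genes of that brightness. Below 8 it was 0.77 for 14 mitotic and 0.48 for 8 S phase members, against 0.37 for all genes.

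Other probe sets of the same genes gave a second reading of the same RNA. Of 16 further mitotic probe sets above the array median on at least 2 arrays, from 11 genes, 12 were highest on E2A_KO 2 among the E2A knockout arrays and 16 were higher on E2A_KO 2 than on E2A_KO 4, by a median of 1.38. Of 21 further S phase probe sets, from 14 genes, 9 were highest on E2A_KO 2 and 12 were higher there than on E2A_KO 4, by a median of 0.07. The sign of the S phase difference between E2A knockout and WT depended on the probe set. It was that of the brightest probe set for 5 of 21 further S phase and 12 of 16 further mitotic probe sets. For HEB knockout minus WT this held for 19 of 21 and 10 of 16. The S phase medians were 0.15 for E2A and 0.49 for HEB knockout minus WT, and the mitotic medians 0.45 and 0.12. The further probe sets share cells, RNA and array with the first probe sets and are no replicate.

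Markers of other cells and array quality on these arrays were as follows. On E2A_KO 2 and E2A_KO 4, the extremes of the mitotic members, the neutrophil mean was 4.71 and 4.60 and the erythroid mean 4.45 and 4.20, close together and near the low end of the 8 arrays, with all 8 neutrophil and 5 of 7 erythroid markers measured. The erythroid mean hid moves in both directions, with 2 of 5 genes higher on E2A_KO 2 than on E2A_KO 4. These were Klf1 (5.16 against 3.81) and Car1 (5.15 against 3.92), whereas Epor was lower (4.41 against 5.39). Other markers also differed between these arrays. All 4 genes of the sort marker list were lower on E2A_KO 2 than on E2A_KO 4, by a median of 0.96, among them Il7r (7.89 against 9.04) and Ly6d (4.48 against 6.88). So were all 4 plasmacytoid dendritic cell genes, by a median of 0.95, among them Siglech (5.32 against 6.95). Mpo, a gene of early granulocyte precursors within the neutrophil list, was higher, at 12.08 against 11.10. Hba-a1, a defining red cell gene, was between 2.74 and 3.12 on every array. The erythroid mean of 6.25 was that of E2A_KO 1, where Car1 reached 8.93 and Klf1 7.81. The hybridization control was 12.03 on E2A_KO 2 and 12.44 on E2A_KO 4. The signal of 3′ over 5′ probe sets, which grows as RNA is shortened, was highest on E2A_KO 2 for actin (4.78, against 3.86 on E2A_KO 4 and 3.37 to 4.45 on the others). For Gapdh it was 5.97 on E2A_KO 2 against 5.38 on E2A_KO 4, and 4.67 to 6.03 on the others, with WT 1 the highest. The part of cell mixture, RNA quality and sort in the spread of the mitotic genes was not tested. In bulk RNA, fewer dividing cells and less RNA per dividing cell cannot be told apart.

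The S phase members are taken first, by role. The helicase that opens DNA at the replication fork is built of Mcm2 to Mcm7. Mcm2 was at 10.37 and 10.63 on the WT arrays, 10.79 and 10.59 on the HEB knockout arrays, and 10.67, 10.54, 9.99 and 10.57 on the E2A knockout arrays. Mcm5 was at 10.76 and 10.83 in WT, 10.98 and 10.91 in HEB knockout, and 11.20, 10.91, 10.49 and 10.75 in E2A knockout cells. Both differed little between E2A knockout and WT cells (-0.06 and 0.04), with E2A knockout arrays on either side of the WT arrays. Over all 6 helicase genes the log2 difference from WT ran from -0.22 to 0.31 in E2A knockout and from 0.06 to 0.68 in HEB knockout cells.

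Mcm3 had the largest of the HEB knockout differences in the helicase. It was at 8.80 and 9.67 in WT, 10.02 and 9.80 in HEB knockout, and 9.35, 8.70, 8.81 and 9.21 in E2A knockout cells. On this probe set both HEB knockout arrays lay above every other array. The difference from WT was 0.68 (SE 0.35, limma adjusted p = 1) in HEB knockout and -0.22 (SE 0.30, adjusted p = 0.7709) in E2A knockout cells. E2A minus HEB knockout was -0.89 (SE 0.30, unadjusted p = 0.0162, adjusted p = 0.2188). The further Mcm3 probe sets, from bright to dim, gave 0.06, 0.72, 1.08 and 0.02 for HEB knockout minus WT. For E2A minus HEB knockout they gave 0.25, -0.57, -0.97 and 0.84, so the probe sets disagree in sign. The E2A knockout difference from WT turned to 0.24 when all probe sets of Mcm3 were averaged, and to 0.22 without WT 2.

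Origins are licensed by Cdc6 and Cdt1, and Cdc45 and Gins2 belong to the machinery that fires them. Cdt1 was at 11.23 and 11.09 in WT, 11.26 and 11.37 in HEB knockout, and 11.78, 11.43, 11.59 and 11.33 in E2A knockout cells. Every E2A knockout array lay above both WT arrays, by 0.38 on average (adjusted p = 0.4560). The further Cdt1 probe set above the array median gave -0.18, so the probe sets disagree in sign. On it E2A_KO 2, 3 and 4 (8.41, 8.44 and 8.51) lay below both WT arrays (8.74 and 8.91). Cdc6 was at 6.78 and 7.13 in WT, 7.48 and 7.35 in HEB knockout, and 7.85, 6.97, 6.25 and 6.74 in E2A knockout cells, where it had both its highest and its lowest value.

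Cdc45 was low on the WT arrays, at 5.29 and 6.05, against 6.79 and 6.09 in HEB knockout and 6.70, 6.78, 6.54 and 6.31 in E2A knockout cells. No knockout array overlapped the WT arrays. The log2 difference from WT was 0.91 (SE 0.30, adjusted p = 0.2499) in E2A knockout and 0.77 (SE 0.34, unadjusted p = 0.0535, adjusted p = 1) in HEB knockout cells. Both differences are taken from the same WT arrays, and neither passed the test. The further probe set of Cdc45 gave 0.53 and 0.24.

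Rrm1 and Rrm2 encode the subunits of ribonucleotide reductase, which makes the building blocks of DNA, and Tyms encodes thymidylate synthase. Rrm2 had the smallest p of all members between E2A knockout and WT. It was at 10.05 and 9.45 in WT, 9.62 and 9.90 in HEB knockout, and 10.70, 10.96, 10.75 and 10.51 in E2A knockout cells. All 4 E2A knockout arrays lay above all 4 other arrays. The difference from WT was 0.98 (SE 0.25, 95% interval 0.42 to 1.53, unadjusted p = 0.0032), with a limma adjusted p of 0.1400, and the difference of E2A from HEB knockout was also 0.98 (adjusted p = 0.1508). Other Rrm2 probe sets gave 0.95 and -0.31 against WT, so the probe sets disagree in sign. HEB knockout minus WT was 0.00.

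Tyms and Rrm1 did not share the pattern of Rrm2. Tyms was at 6.11 and 4.47 in WT, 4.34 and 5.05 in HEB knockout, and 5.95, 5.13, 6.61 and 5.17 in E2A knockout cells. Its WT arrays lay further apart than those of either knockout, and the HEB knockout difference of -0.60 (SE 0.63) turned to 0.22 without WT 1. Rrm1 differed from WT by -0.02 in E2A knockout cells and Ung, which removes uracil from DNA, by 0.47, neither past the test.

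At the fork, Pcna is the sliding clamp that holds the polymerases on DNA, Rfc3 helps load it, and Pola1 and Prim1 start new strands. Pcna was at 9.28 and 9.62 in WT, 10.51 and 9.65 in HEB knockout, and 8.87, 9.17, 9.49 and 9.49 in E2A knockout cells. HEB_KO 1 stood above all others, and both HEB knockout arrays lay above every E2A knockout array. E2A minus HEB knockout was -0.83 for Pcna (unadjusted p = 0.0227, adjusted p = 0.2343) and E2A minus WT was -0.19. Rfc3 was at 6.25 and 5.28 in WT, 6.19 and 6.24 in HEB knockout, and 5.86, 4.92, 4.89 and 5.73 in E2A knockout cells. Its E2A knockout difference from WT, -0.42 (SE 0.37, adjusted p = 0.6440), rested on WT 1: without that array it was 0.07. The further Rfc3 probe set gave 0.22 for E2A and 1.33 for HEB knockout minus WT, so the E2A sign also turned with the probe set. Pola1 was at 7.22 and 7.29 in WT, 7.79 and 7.14 in HEB knockout, and 7.53, 7.87, 7.34 and 7.48 in E2A knockout cells, above WT on all 4 E2A knockout arrays by 0.30 on average (adjusted p = 0.6309).

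Cyclins E1 and E2, the products of Ccne1 and Ccne2, are partners of Cdk2 at the start of S phase. Ccne1 was at 7.64 and 6.88 in WT, 7.24 and 6.74 in HEB knockout, and 7.72, 7.73, 7.05 and 6.86 in E2A knockout cells. Ccne2 was at 4.62 and 5.34 in WT, 6.06 and 4.73 in HEB knockout, and 5.55, 6.51, 3.09 and 4.58 in E2A knockout cells. Both were higher on E2A_KO 1 and 2 than on E2A_KO 3 and 4, and the Ccne2 SD of 1.46 over the E2A knockout arrays goes with a dim probe set. Mean differences from WT were 0.08 for Ccne1 and -0.05 for Ccne2, and the HEB knockout difference of Ccne1, -0.27 (SE 0.40), turned to 0.11 without WT 1.

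Among the mitotic members, Mki67, the gene of the proliferation marker Ki-67, and Top2a, the topoisomerase that untangles chromosomes, were bright on every array. Mki67 was at 10.19 and 10.01 in WT, 9.99 and 10.07 in HEB knockout, and 10.31, 11.01, 10.14 and 9.68 in E2A knockout cells. Top2a was at 10.04 and 9.93 in WT, 10.14 and 10.33 in HEB knockout, and 10.33, 10.49, 10.02 and 9.58 in E2A knockout cells. In both genes the 4 WT and HEB knockout arrays lay within the range of the E2A knockout arrays, whose highest was E2A_KO 2 and lowest E2A_KO 4. The mean differences from WT were small beside that range, 0.18 and 0.12.

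Cdk1 drives mitotic entry with cyclin A2 (Ccna2) and the B cyclins. Ccna2 was at 6.45 and 7.52 in WT, 7.62 and 7.82 in HEB knockout, and 8.17, 9.10, 7.08 and 7.71 in E2A knockout cells. It had the largest difference of all members between E2A knockout and WT, 1.03 (SE 0.52, adjusted p = 0.4161), though E2A_KO 3 lay between the WT arrays. Cdk1 was at 7.10 and 7.54 in WT, 8.14 and 7.68 in HEB knockout, and 8.35, 8.64, 7.61 and 7.40 in E2A knockout cells. It differed by 0.68 (SE 0.37, adjusted p = 0.4532), with E2A_KO 4 between the WT arrays. In HEB knockout cells Cdk1 was 0.59 and Ccna2 0.74 above WT, with no overlap of arrays and a limma adjusted p of 1 for each. Ccnb2, the other B cyclin, differed by -0.19 in E2A and -0.17 in HEB knockout cells.

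The kinases Plk1, Aurka and Aurkb act at centrosomes, spindle and kinetochores. Plk1 was at 5.14 and 5.44 in WT, 5.92 and 4.86 in HEB knockout, and 6.00, 6.39, 5.82 and 4.93 in E2A knockout cells. Aurkb was at 5.41 and 6.59 in WT, 6.98 and 6.25 in HEB knockout, and 6.86, 7.64, 6.61 and 6.18 in E2A knockout cells. Both were highest on E2A_KO 2 and, within the E2A knockout, lowest on E2A_KO 4. Aurka was at 6.31 and 6.20 in WT, 6.75 and 6.55 in HEB knockout, and 6.74, 6.93, 5.01 and 5.50 in E2A knockout cells. Its E2A knockout arrays split into E2A_KO 1 and 2 near the top and E2A_KO 3 and 4 below every other array. The mean difference from WT was -0.21 (SE 0.51, adjusted p = 0.8725), and it was 0.13 without E2A_KO 3.

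The spindle checkpoint is served by Bub1, Bub1b and Ttk, and the anaphase promoting complex that it holds back works with Cdc20 and Ube2c. Cdc20 was at 9.91 and 9.78 in WT, 9.88 and 9.82 in HEB knockout, and 10.57, 11.35, 9.96 and 9.74 in E2A knockout cells. Its WT and HEB knockout arrays spanned less than the step between any of the E2A knockout arrays 1, 2 and 3, and the mean difference from WT was 0.56 (adjusted p = 0.5704). Bub1b was at 8.58 and 8.79 in WT, 9.01 and 9.11 in HEB knockout, and 9.49, 10.09, 9.24 and 8.79 in E2A knockout cells. Its difference, 0.72 (SE 0.33, adjusted p = 0.3896), had the smallest p among the mitotic members in E2A knockout against WT.

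Ube2c and Ttk departed from the common order of arrays. Ube2c was at 4.80 and 4.90 in WT, 5.68 and 4.33 in HEB knockout, and 5.87, 5.42, 3.17 and 3.37 in E2A knockout cells, highest on E2A_KO 1. Ttk was at 5.33 and 5.04 in WT, 5.16 and 4.54 in HEB knockout, and 6.40, 6.24, 6.61 and 4.22 in E2A knockout cells, highest on E2A_KO 3 and far lower on E2A_KO 4 than on the other 3. They were the 2 of 19 mitotic members not highest on E2A_KO 2. The Ube2c difference between E2A knockout and WT was -0.39 (SE 0.77, adjusted p = 0.8450) and turned to 0.04 without E2A_KO 3. The Ttk difference was 0.68 (adjusted p = 0.6383) in E2A and -0.34 (SE 0.69) in HEB knockout cells. The further Ttk probe set gave -0.27 and -0.72, so the E2A sign depended on the probe set.

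Kif11 pushes spindle poles apart, Tpx2 nucleates spindle microtubules, Kif20a acts at the midzone and Birc5 (survivin) in the chromosomal passenger complex, and Cenpa and Cenpe belong to the kinetochore and its chromatin. Kif11 was at 5.06 and 5.46 in WT, 5.60 and 4.41 in HEB knockout, and 5.76, 6.80, 5.95 and 5.47 in E2A knockout cells. On this probe set all 4 E2A knockout arrays lay above WT, E2A_KO 4 only just. Kif11 differed by 0.74 (SE 0.43, adjusted p = 0.4785) between E2A knockout and WT and by 0.99 between E2A and HEB knockout (unadjusted p = 0.0453, adjusted p = 0.2920). Its HEB knockout difference on this probe set, -0.25, came from HEB_KO 2 and was 0.34 without that array. The further Kif11 probe sets gave 0.00 and 0.44 for E2A knockout minus WT, and 0.24 and -0.34 for HEB knockout minus WT. E2A minus HEB knockout was -0.24 and 0.78 on them. E2A_KO 3 (2.88) lay below both WT arrays on the first of them, and E2A_KO 4 (4.61) on the second.

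Tpx2 was at 5.83 and 6.89 in WT, 7.14 and 6.90 in HEB knockout, and 7.34, 8.15, 6.73 and 6.76 in E2A knockout cells. It differed by 0.89 (SE 0.44, adjusted p = 0.4136) between E2A knockout and WT. WT 1 was the lowest array, and E2A_KO 3 and 4 lay below WT 2. The further Tpx2 probe sets gave -0.08, 0.65 and 0.71. Kif20a was at 5.32 and 5.45 in WT, 6.47 and 6.23 in HEB knockout, and 6.57, 7.20, 4.80 and 5.09 in E2A knockout cells. Its E2A knockout arrays split in the same way as those of Aurka, and it had the largest HEB knockout difference of any member, 0.96 (SE 0.70, adjusted p = 1). Birc5 was at 6.66 and 6.69 in WT, 7.59 and 7.0 in HEB knockout, and 7.24, 7.76, 7.29 and 6.22 in E2A knockout cells, and Cenpa was at 6.99 and 7.59 in WT, 7.90 and 6.97 in HEB knockout, and 7.76, 8.38, 6.98 and 6.91 in E2A knockout cells. Both were highest on E2A_KO 2 and lowest on E2A_KO 4. The remaining mitotic members, Bub1 and Cenpe, did the same, with differences from WT of 0.65 and 0.08.

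Read as genotype comparisons, the mitotic members stood on average higher in E2A knockout than in WT cells and the S phase members did not, with neither difference carried by a call. The median log2 difference was 0.53 for the mitotic members, 0.02 for the S phase members and -0.05 for all genes tested. It was above 0 for 16 of 19 mitotic members and 10 of 20 S phase members, against 45.1% of all genes. The mitotic figures leaned on E2A_KO 2: without it the median was 0.24 and 12 of 19 were above 0. An unadjusted p under 0.05 was reached by 2 of 20 S phase members (Rrm2 and Cdc45) and 0 of 19 mitotic members, against 13.4% of all genes. All E2A knockout arrays lay above both WT arrays for 4 S phase and 2 mitotic members, 6 of 39, against 9.98% of all genes, and all lay below for 0 of 39, against 15.4%. In the other 17 mitotic members the E2A knockout arrays overlapped the WT arrays.

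**Figure D3:**
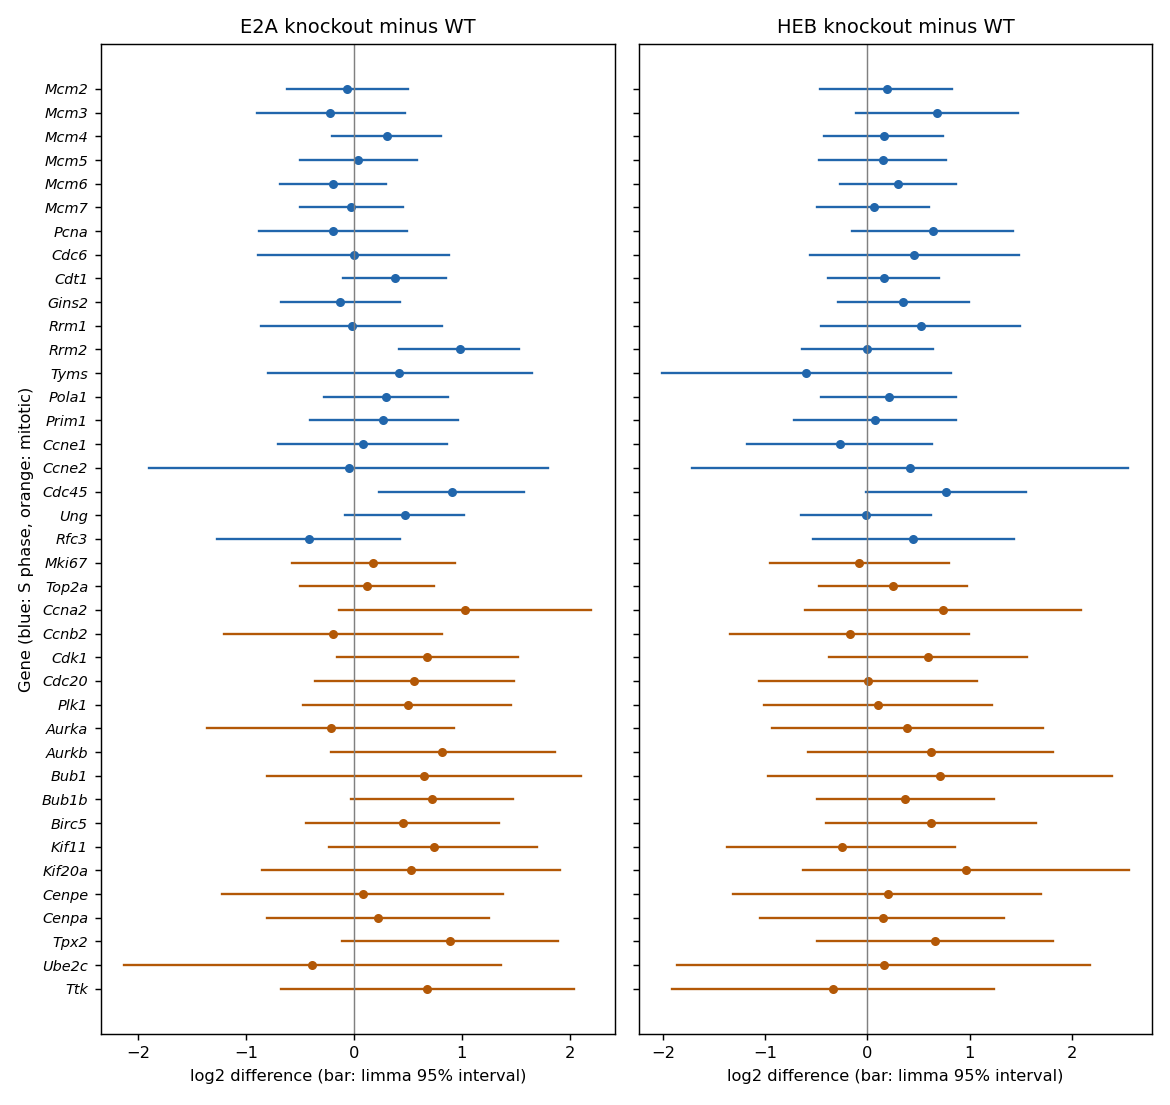
Log2 difference from WT for each measured member (rows, S phase in blue and mitotic in orange), in E2A knockout (left) and HEB knockout cells (right), with bars for the limma 95% interval of each gene alone. Nearly all intervals include 0, the mitotic intervals are mostly wider than those of the S phase members, and Rrm2 stands at 0.98 on the left and 0.00 on the right.

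In HEB knockout cells both waves stood slightly above WT, and here the background was high as well. The median difference was 0.20 for the S phase members, 0.25 for the mitotic members and 0.09 for all genes. It was above 0 for 17 of 20 S phase and 15 of 19 mitotic members, against 61.8% of all genes. These counts depended on single arrays. They were 13 and 13 without WT 2, against 64.6% of all genes, and 16 and 11 without HEB_KO 1, against 56.1%. Without WT 1 they were 20 and 14, against 53.2%, and without HEB_KO 2 16 and 17, against 64.2%. Both HEB knockout arrays lay above both WT arrays for 8 S phase and 9 mitotic members, 17 of 39, against 23.4% of all genes, and below for 0 of 39, against 11.4%. By role, the S phase members above were 4 of 4 of origin licensing and firing, 3 of 6 of the helicase and 1 of 4 of the fork. None came from nucleotide supply and uracil repair (0 of 4) or the E cyclins (0 of 2). Some gaps were narrow, with Cdt1 at 11.26 on HEB_KO 1 against 11.23 on WT 1, and Cdc45 at 6.09 on HEB_KO 2 against 6.05 on WT 2. Without HEB_KO 2 the mitotic median was 0.62, and without WT 1 it was 0.13. Neutrophil genes moved with this contrast: 7 of 8 had both HEB knockout arrays above both WT arrays, with a median difference of 2.84, and their mean was 6.88 and 8.39 on the HEB knockout arrays against 4.61 and 5.97 in WT. Their part in the cell cycle differences was not tested.

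E2A and HEB knockout cells were compared directly, with the HEB knockout arrays shared with the comparison above. The median difference, E2A minus HEB knockout, was -0.10 for the S phase members and 0.09 for the mitotic members, against -0.16 for all genes. With cyclic loess scaling these were 0.06, 0.36 and -0.03, so the S phase sign turned. It was above 0 for 9 of 20 and 11 of 19 members, against 37.1% of all genes. The mitotic count fell to 7 without HEB_KO 2, to 6 without E2A_KO 2 and to 9 without E2A_KO 1. It rose to 15 without HEB_KO 1, to 14 without E2A_KO 3 and to 16 without E2A_KO 4. An unadjusted p under 0.05 was reached by 4 S phase members (Rrm2, Mcm3, Pcna and Rfc3) and 1 mitotic member (Kif11), against 16.5% of all genes. The E2A knockout arrays lay wholly above the HEB knockout arrays for 3 members, against 7.82% of all genes, and wholly below for 5 members, all of S phase, against 21.6%.

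Further genes of the same pathways, which are not members, were read from 4 lists. Of 35 other replication genes 32 were measured, and of 40 other G2 and mitosis genes all 40. The other mitosis genes shared the highest array of the mitotic members but not the lowest. Of these genes 39 of 40 were higher on E2A_KO 2 than on E2A_KO 4, 23 of them at least 2-fold, with a median of 1.08. E2A_KO 2 was the highest of the 8 arrays for 35 of 40. The lowest E2A knockout array was E2A_KO 3 for 25 of 40 and E2A_KO 4 for 13 of 40, with average deviations of -0.54 and -0.30. Of the other replication genes 27 of 32 were higher on E2A_KO 2 than on E2A_KO 4, 2 of them at least 2-fold, with a median of 0.37. The E2F and DREAM regulators (21 genes) had a median of -0.01 and the G1 cyclins and Cdk inhibitors (15 genes) of -0.05, against -0.05 for all genes. The median step between these arrays was thus largest in the 2 lists of mitosis genes. Of the 21 regulators 10 were higher on E2A_KO 2 than on E2A_KO 4, and 0 were at least 2-fold higher. Foxm1 and Mybl2, which encode the activators FOXM1 and B-MYB of the mitotic wave and were picked after their values were seen, lay at 6.76 and 5.93 on E2A_KO 2 against 5.94 and 5.02 on E2A_KO 4. Foxm1 was highest of all 8 arrays on E2A_KO 2, whereas Mybl2 was highest on E2A_KO 1, at 6.03, and lowest on E2A_KO 3, at 3.84.

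**Figure D4:**
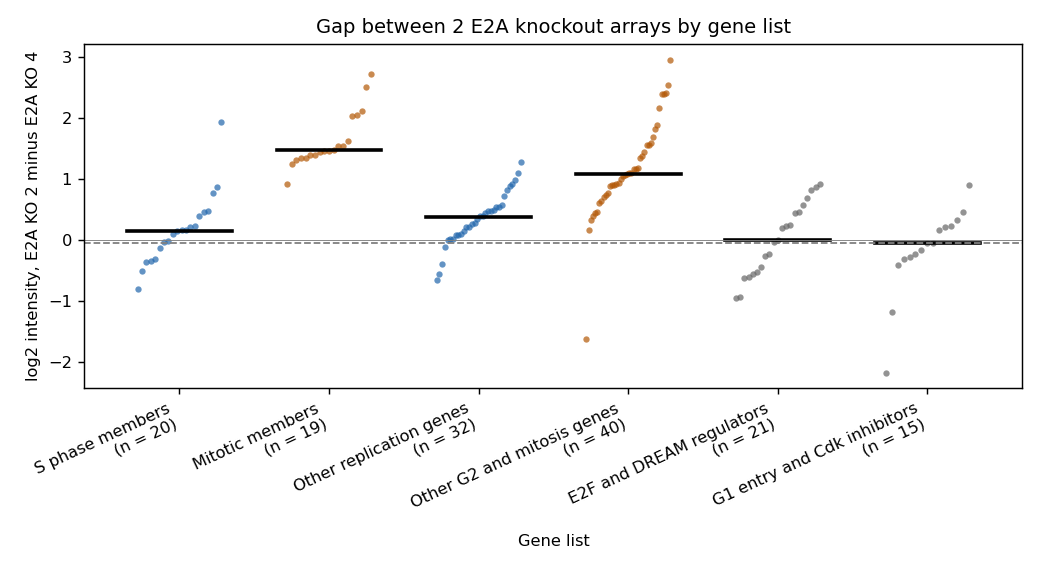
Difference in log2 intensity between E2A_KO 2 and E2A_KO 4 for each gene (points) of the 6 lists, with the median of each list as a bar and the median of all genes tested (-0.05) as a dashed line. The medians are 1.47 and 1.08 in the lists of mitosis genes, 0.15 and 0.37 in those of replication genes, and -0.01 and -0.05 in the others.

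None of these lists had a gene that passed the test in any of the 3 comparisons. In E2A knockout against WT the other G2 and mitosis genes had a median difference of 0.30, with 31 of 40 above 0. The other replication genes had one of 0.14, with 23 of 32 above 0, against 45.1% of all genes. The smallest p values in these belonged to Dlgap5 (0.91, SE 0.25, limma adjusted p = 0.1668), a spindle protein, Ncaph (0.74, adjusted p = 0.3618), a condensin subunit, Prim2 (0.71, adjusted p = 0.3225), a primase subunit, and Fen1 (0.51, adjusted p = 0.3451), a flap nuclease. E2f7 and E2f8, which encode repressors of the E2F wave, led the regulators. E2f7 was at 4.84 and 5.89 in WT, 6.23 and 6.15 in HEB knockout, and 6.87, 6.60, 6.48 and 6.61 in E2A knockout cells, with every E2A knockout array above all others, and differed from WT by 1.27 (SE 0.29, adjusted p = 0.1120). E2f8 was at 7.10 and 7.05 in WT, 7.25 and 7.17 in HEB knockout, and 7.82, 8.14, 8.29 and 7.45 in E2A knockout cells, also with no overlap, and differed by 0.85 (SE 0.26, adjusted p = 0.2202). E2f7 varied little over the 4 E2A knockout arrays, and E2f8 was highest on E2A_KO 3. Cdkn2c and Cdkn1a, inhibitors of Cdk enzymes, differed by 0.67 (adjusted p = 0.3775) and 0.58 (adjusted p = 0.4554).

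In HEB knockout against WT 31 of 32 other replication genes were above 0, against 61.8% of all genes, with a median of 0.28. For 20 of the 32 both HEB knockout arrays lay above both WT arrays (62.5%, against 23.4% of all genes), with no call among them. The other G2 and mitosis genes had a median of 0.16 in that comparison, with 32 of 40 above 0 and 16 with arrays apart upward.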

How the data were processed

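Expression was measured on Affymetrix arrays of RNA from pooled, sorted cells, 8 arrays in all. Per the labels' protocols, cells were sorted into lysis buffer, RNA was prepared with RNeasy Micro, and a small sample kit with more than 1 round of amplification gave biotinylated cRNA. The deposited intensity values are on a linear scale and were summarised per probe set with RMA by the authors, per the submitters' processing notes, with no RMA version stated there. Of 45101 probe sets, 34945 named a single gene, 932 named several, 9160 had no name and 64 were controls. These were converted to log2 without further scaling. Having 2 to 4 arrays per genotype limits precision.

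Each of 18193 genes was represented by the probe set with the highest mean over 8 arrays. A gene was tested if it lay above the array median on at least 2 arrays, which kept 11957. limma 3.58.1 (R 4.3.3) was fitted with 1 mean per genotype, 5 residual degrees of freedom, two-sided tests and Benjamini-Hochberg adjusted p under 0.05 over all genes tested; rose, fell and called refer to this. Tested on simulated data for E2A knockout against WT (10 sets, each with 200 of 11957 genes changed), the fit gave 5.71% false calls and recovered 90.3% of 8-fold changes.

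The members and lists were chosen with earlier results of these data known. Values per array were printed for a fixed subset of members and for the 2 most positive and 2 most negative of each wave in each knockout against WT; from other lists the 2 genes with the smallest p. Alternatives were the filter, scaling, probe set rule, variance model, array weights, genotypes in the fit, a replicate block, the hybridization control as a covariate and leaving out each array. Positive counts without each array and a crossed pairing were added after seeing the data.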

Additional observations from a re-analysis of the deposited data

Results flagged for a closer look

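Each member, and the averages over the members, were examined for an array apart among the 4 E2A knockout arrays, 42 sets of values in all, and 1 was found. For Ttk the gap between E2A_KO 4 (4.22) and the next array (6.24) took up 0.846 of the range of the 4 arrays, above Dixon's critical value of 0.829. Chance marks about 1 in 20 such sets. Ttk ran from 4.22 to 6.61 over the 8 arrays. It was among the members with a mean below 8, yet above the array median on all 8 arrays.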

How the results depend on the processing

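No member was called under any alternative, and the smallest limma adjusted p among the named results was 0.0659 over all of them. The count of all genes called changed: for E2A knockout against WT (53) it was 91 with a trended robust variance, 120 with array weights, 26 with only the compared genotypes, 12 with a replicate block, 1 with the hybridization control as covariate, and 2 (without WT 2) to 104 (without E2A_KO 3) with an array left out. For E2A against HEB knockout (14) it was 42, 91, 6, 3 and 1 in that order, and 1 to 21 with an array left out. For HEB knockout against WT it was 0 throughout, also with the crossed pairing.

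The S phase median for E2A knockout against WT (0.02) was 0.28 with the replicate block, 0.33 with the covariate and -0.07 to 0.19 with an array left out; the mitotic median (0.53) was 1.02 with the block, 1.20 with the covariate and 0.24 to 0.78 with an array left out. For E2A against HEB knockout the S phase median (-0.10) was 0.06 with cyclic loess, 0.13 with the block, 0.16 with the covariate and -0.23 to 0.05 with an array left out, and the mitotic median (0.09) was 0.36, 0.64, 0.84 and -0.13 to 0.39 in that order. The HEB knockout S phase median was 0.37 with the mean of all probe sets. Signs turned in E2A knockout against WT for Mcm3 (0.24 with the mean of probe sets, 0.29 with the covariate, -0.65 to 0.22 with an array left out), Aurka (0.12 with the mean of probe sets, 0.58 with the block, 0.55 with the covariate, -0.51 to 0.13 with an array left out), Ube2c (0.80 with the block, 1.34 with the covariate, -0.86 to 0.04) and Rfc3 (-0.90 to 0.07), and in HEB knockout against WT for Tyms (-1.42 to 0.22), Ccne1 (-0.65 to 0.11) and Kif11 (-0.85 to 0.34). The cause was not tested. The mitotic count above 0 for E2A against HEB knockout (11) ran from 6 without E2A_KO 2 to 16 without E2A_KO 4. Median centring moved the median of all genes to -0.10, 0.13 and -0.26 in E2A against WT, HEB against WT and E2A against HEB knockout, from -0.05, 0.09 and -0.16. The spread of the E2A knockout arrays in the mean of all members (0.88) was 0.72 to 0.88 with an array left out. Where an array left out leaves 1 in a genotype, that array is assumed to vary like the others. The replicate numbers behind the block share only a number: the correlations of same-numbered arrays' deviations ran from -0.28 to 0.15.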
